A study of Mus musculus with 4 samples.

Results

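The AP-1 family is a set of basic leucine zipper (bZIP) transcription factors. The genes described here were the 10 symbols Fos, Fosb, Fosl1, Fosl2, Jun, Junb, Jund, Batf, Batf3 and Atf3, taken by name from count tables of 16613 gene symbols. Of the 10, 9 were found among the symbols, and Fosl1 was not analysed here. Of those 9, 8 passed the filter on low counts and Batf3 did not. RNA-seq was available for GFP+ cells from the bone marrow of recipient mice. The recipients had received B220+ marrow cells carrying an introduced N-myc, which all libraries share. Per the labels these are N-myc-induced B-ALL cells, a model of B-cell acute lymphoblastic leukaemia, on the C57BL/6 strain. The donor cells were Anp32b+/+ (wild type, 2 libraries) or Anp32b-/- (knockout, 2 libraries). The sources used here state neither the ages, nor how many recipients a library represents, nor whether the Anp32b deletion is limited to a cell type.

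AP-1 proteins bind DNA as pairs held together by their leucine zippers. Jun proteins can pair with each other or with a Fos protein, whereas Fos proteins need a Jun partner. Batf and Batf3 lack the activation domains of Fos proteins and, paired with a Jun protein, bind composite sites together with IRF4 or IRF8. Atf3 is induced by stress and is best known as a repressor. Fos, Fosb, Jun and Junb are classical immediate early genes, transcribed within minutes of a signal through MAP kinases and with short-lived mRNAs, while Jund is expressed more steadily. In B cells, AP-1 genes respond to signals through the antigen receptor.

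The promoters of 4 members are shown because they carry the sequence elements that differ between members. The bases lie directly upstream of the start given by RefSeq (GRCm38.p6), or, for Batf, upstream of the earlier GENCODE start, and are written 5′ to 3′ on the gene's strand. Capitals mark TGACG, a part of the cAMP response element, TGACATCA, a Jun-type variant of that element, CCAAT, and TATAAA.
Fos, chr12:85473640-85473889, plus strand: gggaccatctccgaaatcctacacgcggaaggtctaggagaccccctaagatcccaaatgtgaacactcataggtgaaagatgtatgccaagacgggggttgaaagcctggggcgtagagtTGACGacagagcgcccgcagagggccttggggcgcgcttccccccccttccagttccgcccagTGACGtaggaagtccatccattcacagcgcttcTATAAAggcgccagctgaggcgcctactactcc
Junb, chr8:84978749-84978998, minus strand: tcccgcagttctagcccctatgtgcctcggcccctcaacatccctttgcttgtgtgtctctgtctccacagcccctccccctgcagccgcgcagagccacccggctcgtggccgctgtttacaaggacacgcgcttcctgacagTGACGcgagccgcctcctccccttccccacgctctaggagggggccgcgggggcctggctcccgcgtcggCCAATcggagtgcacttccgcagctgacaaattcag
Batf, chr12:85686470-85686668, plus strand: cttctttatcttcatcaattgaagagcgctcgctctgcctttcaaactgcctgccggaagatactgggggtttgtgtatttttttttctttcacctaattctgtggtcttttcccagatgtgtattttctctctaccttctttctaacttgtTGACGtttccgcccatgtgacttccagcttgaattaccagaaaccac
Jun, chr4:95052223-95052472, minus strand: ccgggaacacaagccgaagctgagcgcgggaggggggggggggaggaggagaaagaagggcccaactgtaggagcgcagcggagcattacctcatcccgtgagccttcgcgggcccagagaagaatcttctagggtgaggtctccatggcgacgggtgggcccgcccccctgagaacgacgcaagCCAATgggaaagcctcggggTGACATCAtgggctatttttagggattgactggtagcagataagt
In the 250 bases upstream of the RefSeq start, TGACG was found on either strand for 5 of the 9 members (Fos, Fosb, Junb, Batf and Atf3) and in 17.9% of 27025 promoters of the same length. TGACATCA was found for Jun alone among the 9, and in 3.02% of all promoters. No match to TGACGTCA, which contains TGACG, to the AP-1 site TGANTCA or to the CArG box was found in any of the 9 windows, and these letters stood in 1.62%, 6.87% and 1.4% of all promoters. CCAAT stood in the windows of Jun and Junb (34.5% of all promoters) and TATAAA in that of Fos (13%). GGGCGG, which is not capitalised above, was found for 7 of the 9 and in 32.9% of all promoters. The windows of Fosl2 and Batf3 begin within annotated exons of these genes. The TGACG matches of Fosb (60 to 56 bases upstream) and Atf3 (7 to 3) overlap bases annotated as part of those genes. For Jund, the RefSeq start that sets the window lies further upstream than that of GENCODE. Bases beyond the 250 were not searched for any member. A missing match therefore holds for these windows only. A match describes the letters only and is no evidence of binding.

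Most of the family was higher in the knockout libraries. Of the 8 tested members, 6 rose (Fosl2, Batf, Fosb, Junb, Fos and Jund), 1 fell (Atf3) and 1, Jun, did not pass the test. Across all 12123 tested genes, 10.9% were called higher and 12.6% lower. The median log2 fold change (knockout minus wild type) was 0.51 over the 8 members and 0.0021 over all tested genes. Calls were made with edgeR's quasi-likelihood test where the p adjusted over all tested genes was below 0.05. Levels are given as CPM, the read count scaled to a common library size with TMM factors. For all 8 members the values of the 4 libraries separated the genotypes, 7 with knockout above and 1 with knockout below. Over all tested genes, knockout lay above in 30% and below in 30.5% (60.5% in all), so separation by itself is common in these libraries.

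**Figure D1:**
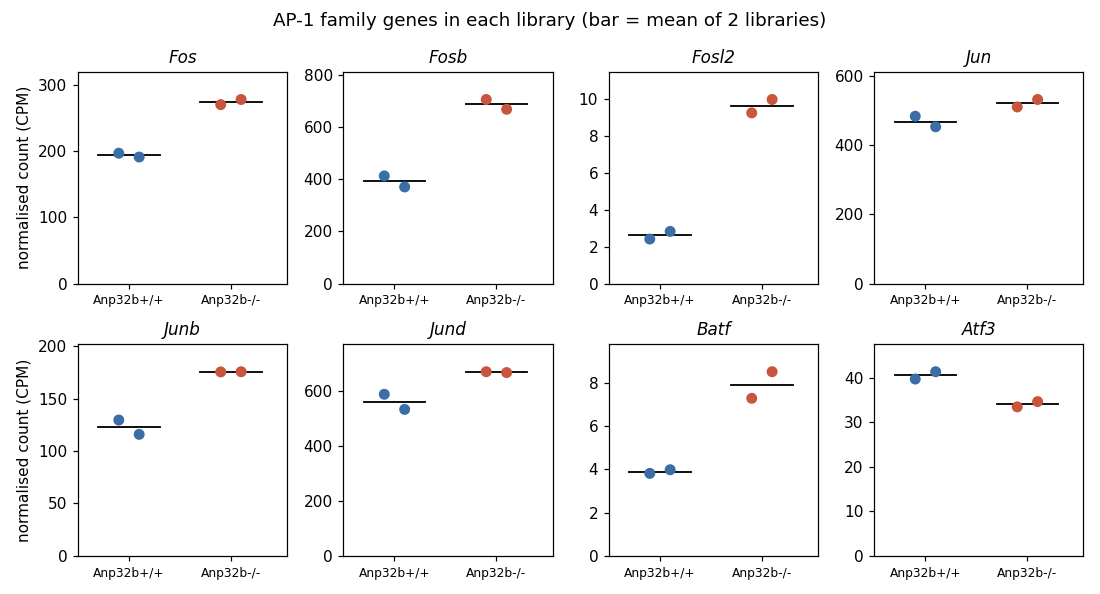
Normalised counts (CPM, linear axes from 0) of the 8 tested AP-1 members in each of the 4 libraries, with the mean of each genotype as a bar. The 2 knockout libraries lie above both wild-type libraries for every member except Atf3, for which they lie below.

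Among the Fos genes, Fosb had the highest CPM values. Fosb, on chromosome 7 at 19302696 to 19310118, encodes a Fos protein that also occurs as a truncated, long-lived splice form, and counts per gene do not separate the forms. It was at 412 and 370 CPM in the wild-type libraries and at 705 and 668 CPM in the knockout libraries. The lower knockout value lay well above the higher wild-type value. Fosb rose 1.75-fold, from 391 ± 29.9 to 687 ± 26.6 CPM (SD, n = 2 each, log2 fold change 0.81, SE 0.06, edgeR adjusted p = 2.07e-07).

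Fos, the founding member, lies on chromosome 12 at 85473890 to 85477274. Its values were 197 and 191 CPM in wild type against 271 and 278 CPM in knockout. Libraries of one genotype differed little and the genotypes stood apart. The rise was 1.41-fold (log2 fold change 0.50, SE 0.05, edgeR adjusted p = 5.47e-06). Its TGACG matches lay 129 to 125 and 66 to 62 bases upstream of the start, in the promoter printed above.

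Fosl2 encodes FRA-2, a Fos protein without the activation domain of Fos, and lies on chromosome 5 at 32136472 to 32157840. It had 48 and 56 reads in wild type and 180 and 193 in knockout, or 2.41 and 2.82 against 9.24 and 9.97 CPM. Fosl2 showed the largest fold change of the 8 tested members from a low level. It rose 3.66-fold (log2 fold change 1.87, 95% interval 1.53 to 2.21, edgeR adjusted p = 8.00e-07), and 0.371% of all tested genes had a larger log2 fold change. Its related gene Fosl1 was not analysed here.

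Of the Jun genes, Junb had the largest fold change, close to that of Fos. Junb, a Jun protein that often restrains the activity of Jun, lies on chromosome 8 at 84976909 to 84978748. It was at 130 and 116 CPM in wild type and at 175 and 176 CPM in knockout. The knockout libraries were almost equal and both exceeded the wild-type pair. Junb rose 1.43-fold (log2 fold change 0.52, SE 0.06, edgeR adjusted p = 1.65e-05). Annotated exons of Prdx2, a peroxiredoxin gene on the opposite strand, overlap those of Junb, and since no strand setting is stated, reads of the overlap cannot be assigned. Prdx2 itself was at 227 and 260 CPM against 259 and 263 CPM and was not called (log2 fold change 0.10, adjusted p = 0.277).

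Jund encodes the Jun protein least dependent on acute signals and lies on chromosome 8 at 70697739 to 70700616. It was at 587 and 532 CPM in wild type and at 669 and 666 CPM in knockout. The wild-type libraries differed by more than the knockout libraries did. Jund rose 1.19-fold (log2 fold change 0.25, SE 0.06, edgeR adjusted p = 0.00438). With no filter on low counts (adjusted p = 0.0770), or when knockout replicate 1 (0.0997) or knockout replicate 2 (0.156) was left out, Jund did not pass, within a range of 2.29e-06 to 0.156 over 11 alternatives.

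Jun, the partner that most AP-1 pairs can contain, lies on chromosome 4 at 95049036 to 95052222. It was at 483 and 452 CPM in wild type and at 509 and 531 CPM in knockout (means 467 and 520 CPM). The nearest libraries of opposite genotype lay closer together than the wild-type pair did. The log2 fold change was 0.15 (95% interval 0.04 to 0.27, edgeR adjusted p = 0.0521), which does not pass the threshold and leaves room for a small rise. Jun was called higher without wild-type replicate 1 (0.20, adjusted p = 0.00118) and with limma-voom (0.15, adjusted p = 0.0475), within a range of 0.00118 to 0.466 over 11 alternatives. All 3 Jun genes have a single exon in GENCODE M21. Antisense transcripts, Junos at Jun and Gm11175 at Jund, overlap them in the annotation and were not analysed here.

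The other 3 members had low or moderate levels. Batf, which like Fos lies on chromosome 12, at 85686720 to 85709087, was at 3.82 and 3.98 CPM in wild type and at 7.29 and 8.52 CPM in knockout. Both knockout values were well above the wild-type pair, which hardly differed. Batf rose 2.02-fold (log2 fold change 1.02, SE 0.15, edgeR adjusted p = 2.31e-04). Batf3, best known from dendritic cells, had 2 and 6 reads in wild type and 1 and 1 in knockout. The ratio of wild type to knockout was 3.91 with a 95% counting interval of 0.78 to 37.8, so no difference was detectable at this depth. Such intervals cover counting error only.

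Atf3, on chromosome 1 at 191170296 to 191183333, was the only tested member that fell. It was at 39.7 and 41.3 CPM in wild type and at 33.4 and 34.6 CPM in knockout, without overlap between the genotypes. The log2 fold change was -0.25 (SE 0.07, edgeR adjusted p = 0.0162). Atf3 did not pass with DESeq2 (adjusted p = 0.132), with no filter (0.0667), or when knockout replicate 1 (0.180) or knockout replicate 2 (0.136) was left out, within a range of 0.00511 to 0.180 over 11 alternatives.

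**Figure D2:**
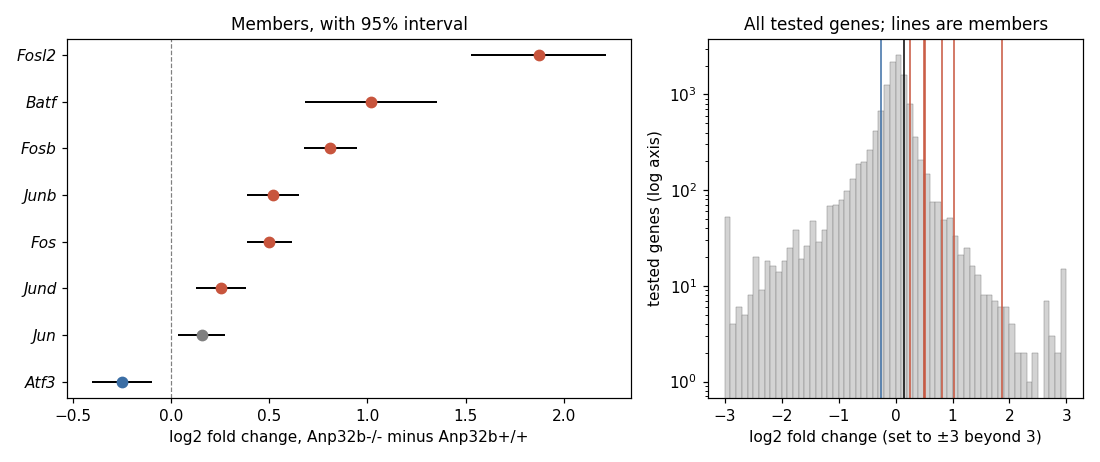
Left, log2 fold change (knockout minus wild type) of each tested member with its 95% interval from edgeR, red for called higher, blue for called lower and grey for not called. Right, the distribution over all 12123 tested genes (log vertical axis) with members as lines, from Atf3 at -0.25 to Fosl2 at 1.87.

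To compare levels between genes, CPM was divided by transcript length in kilobases, the median over a gene's protein-coding GENCODE transcripts. On this scale the order in wild type was Jund (336 ± 23.3 CPM per kb, SD, n = 2), Jun (147 ± 6.75), Fosb (109 ± 8.30), Fos (92.1 ± 1.94), Junb (67.8 ± 5.35), Atf3 (20.8 ± 0.60), Batf (4.08 ± 0.12) and Fosl2 (0.40 ± 0.04). Each neighbouring pair in wild type was separated by more than its SDs, and no test was made between genes. In knockout, Fosb (191 ± 7.39 CPM per kb) stood above Jun (163 ± 4.78), the reverse of their order in wild type. Among 11649 genes ranked per length, Jund held rank 310 in wild type and 261 in knockout, and Fosb rank 1160 and 631. Fosl2 stayed near the bottom, at ranks 10972 and 9569.

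The summed level per length of Fos, Fosb and Fosl2 was 208 and 194 CPM per kb in wild type and 326 and 319 in knockout. For Jun, Junb and Jund together it was 575 and 525 against 658 and 663 CPM per kb. Relative to the Jun sum, the Fos sum was 0.363 and 0.370 in wild type and 0.495 and 0.481 in knockout. The Fos genes therefore gained more in proportion than the Jun genes did in these libraries. This is a description, and no test of it was made (with 2 libraries a side, the smallest p an exact permutation test allows is 0.333). Within the Fos sum, the share of Fosb was 55.0% and 53.0% in wild type and 60.2% and 58.1% in knockout. Within the Jun sum, Junb made up 12.5% and 12.2% in wild type and 14.8% and 14.7% in knockout, and Jund close to 61.0% and 60.6% on average. RefSeq places the start of Jund further upstream than GENCODE does. With RefSeq gene lengths for the Jun genes, an alternative chosen after seeing this, Jund made up 47.7% and 47.3%, and the ratio of the Fos to the Jun sum was 0.494 in wild type and 0.657 in knockout.

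**Figure D3:**
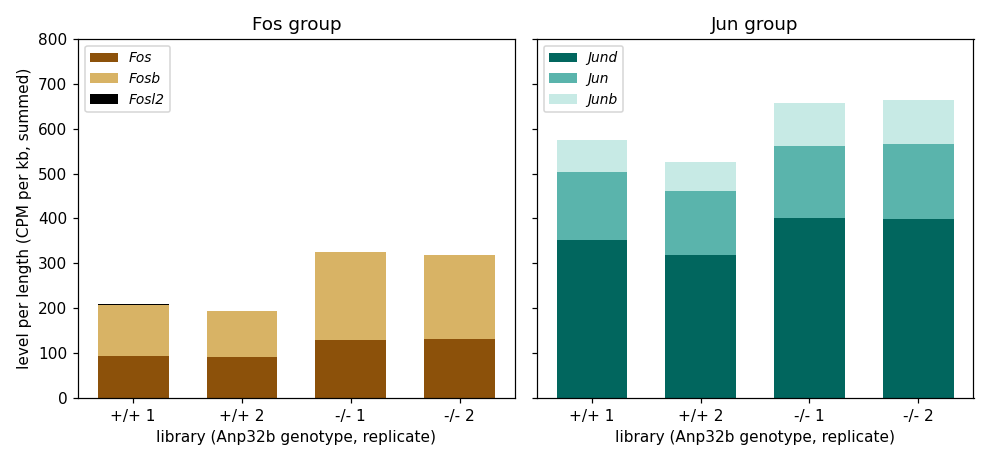
Level per length (CPM per kb) in each library, stacked for the Fos genes (left) and the Jun genes (right) on a common axis from 0. The Fos sum is 194 and 208 in wild type against 319 and 326 in knockout, and Fosl2 is barely visible.

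The genes around AP-1, taken from 7 lists, moved in both directions. Of 125 tested genes, 20 rose, 30 fell and 75 were not called, with a median log2 fold change of -0.0031. In all, 40.0% of them were called, against 23.6% of all tested genes. The share differed between lists: it was 53.3% for other immediate early genes and 70% for AP-1 target genes, and 23.5% to 33.3% for the other 5 lists, nearer to the background. The counts higher and lower were 12 and 21 without knockout replicate 1 and 10 and 12 without knockout replicate 2.

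Upstream of AP-1, 2 of 27 tested MAP kinase genes rose and 5 fell (25.9% called, median log2 fold change -0.07). Map3k1, a kinase at the head of the JNK cascade, was at 60.3 and 61.5 CPM in wild type and rose to 80.3 and 76.5 CPM (log2 fold change 0.36, edgeR adjusted p = 3.70e-04). Map3k8, which encodes the ERK-activating kinase TPL2, fell (-1.07, adjusted p = 8.09e-04), and Mapk13, a p38 kinase gene at 1.08 CPM in wild type, fell as well (-2.54, adjusted p = 0.00169). Without knockout replicate 2 neither passed (adjusted p = 0.0554 and 0.0593), nor did Map3k8 with no filter (0.0564), and the lowest values over 10 alternatives were 4.34e-06 and 4.07e-04.

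For the factors that act at the Fos and Jun promoters, 2 of 11 tested genes rose and 1 fell (27.3% called). Srf, which encodes the serum response factor, rose from 104 to 122 CPM (log2 fold change 0.23, edgeR adjusted p = 0.00768). Crtc2, a CREB coactivator gene, rose by 0.21 (adjusted p = 0.0112), and Elk3, an ETS factor gene, fell by 0.35 (adjusted p = 0.00195). Srf and Crtc2 did not pass when knockout replicate 1 was left out (adjusted p = 0.0827 and 0.120) or knockout replicate 2 (0.193 and 0.183, the highest over 11 alternatives). Elk3 did not pass when knockout replicate 2 was left out (0.113). The lowest were 4.22e-04, 0.00321 and 6.27e-05.

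Among genes for turnover and repression of Fos and Jun, 2 of 11 rose and 1 fell (27.3% called). Zfp36 and Zfp36l2 encode proteins that bind AU-rich elements and speed the decay of short-lived mRNAs. Zfp36l2 rose from 179 ± 14.1 to 380 ± 2.93 CPM (SD, n = 2 each, log2 fold change 1.09, edgeR adjusted p = 9.68e-09) and Zfp36 from 323 to 421 CPM (0.38, adjusted p = 7.91e-05). Their relative Zfp36l1 fell by 0.28 (adjusted p = 0.00315), a call lost without knockout replicate 2 (0.187, the highest over 11 alternatives, the lowest being 1.44e-05).

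Of 17 other bZIP genes, 1 rose and 3 fell (23.5% called, close to the share over all tested genes). Bach2, a repressor that competes with AP-1 for related sites in B cells, fell from 83.0 and 73.0 CPM to 47.1 and 46.8 CPM (log2 fold change -0.73, edgeR adjusted p = 2.62e-06). Mafg, a small Maf protein gene, rose by 0.40 (adjusted p = 7.03e-04). Ddit3, a stress-induced gene, fell by 0.40 (adjusted p = 0.00954) and Nfe2, an erythroid and megakaryocyte factor gene, by 1.08 (adjusted p = 0.00743). Neither call held without knockout replicate 1 (adjusted p = 0.0534 for Ddit3 and 0.0966 for Nfe2) or without knockout replicate 2 (0.130 and 0.0633), and the lowest values over the alternatives were 0.00340 and 0.00227.

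At composite sites, 2 of 9 partner genes rose and 1 fell (33.3% called). Irf4, the partner of BATF in lymphocytes, fell from 417 and 403 CPM to 337 and 330 CPM (log2 fold change -0.30, edgeR adjusted p = 6.55e-04), while Batf rose. Spib, which encodes a relative of PU.1, rose by 0.31 (adjusted p = 4.02e-04) and Ets1 by 0.20 (adjusted p = 0.0105). Without knockout replicate 2, the adjusted p was 0.0955 for Irf4, 0.0739 for Spib and 0.159 for Ets1, and without knockout replicate 1 it was 0.207 for Ets1. The lowest over 11 alternatives were 1.39e-05, 5.81e-06 and 9.16e-04. Spi1, the gene of PU.1, which the series title names, was not called (log2 fold change 0.02, adjusted p = 0.833).

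Other immediate early genes split in direction, with 6 of 30 tested genes higher and 10 lower (median log2 fold change -0.01). Klf2, a quiescence factor of lymphocytes, rose from 231 and 221 CPM to 441 and 435 CPM (0.96, edgeR adjusted p = 9.68e-09). Sgk1, a kinase gene induced by glucocorticoids, fell from 138 to 75.3 CPM (-0.88, adjusted p = 8.89e-08), and Cd69, an early activation marker, from 210 to 135 CPM (-0.63, adjusted p = 1.33e-06). Egr1, Ier2 and Dusp1, which lie outside the naming rule and were chosen after their values were seen, are often induced together with Fos. They were at 21.6, 51.0 and 65.5 CPM in wild type and at 18.8, 54.4 and 62.3 CPM in knockout, and none was called (adjusted p = 0.101, 0.348 and 0.439). These genes do not represent the list. Within it, Nr4a1 (log2 fold change 0.89) and Gadd45b (0.71) were also called higher, and Tnfaip3 (-0.88) and Dusp6 (-0.58) were also called lower.

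**Figure D4:**
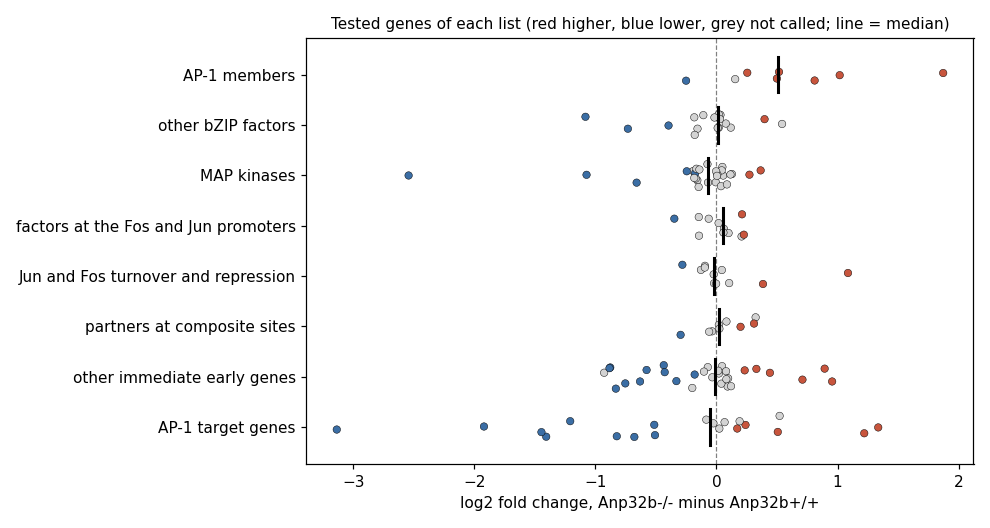
Log2 fold change (knockout minus wild type) of each tested gene of the AP-1 family and of 7 lists around it, one point per gene with random vertical spread within a list, the list median as a line, red for called higher and blue for called lower. The median of the AP-1 members is 0.51, and those of the 7 lists run from -0.07 to 0.06.

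Among textbook AP-1 target genes, 5 of 20 tested genes rose and 9 fell (median log2 fold change -0.05). Ccnd1, the cyclin D1 gene, rose from 14.4 and 13.8 CPM to 32.4 and 33.3 CPM (1.22, edgeR adjusted p = 6.48e-08), and Gja1, which encodes connexin 43, from 8.58 to 21.7 CPM (1.34, adjusted p = 8.00e-07). Cdkn1a, the p21 gene, fell from 49.6 to 18.7 CPM (-1.41, adjusted p = 1.64e-08). These genes were named for their small p and do not represent the list. Within it, Mmp9 (log2 fold change -1.92), Lgals3 (-0.82) and Anxa1 (-0.68) were also called lower, and Vim (0.51) and Cdk6 (0.24) were also called higher. Whether AP-1 had a part in any of these changes was not tested.

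Anp32b, the gene deleted, was at 774 and 853 CPM in wild type and at 74.4 and 70.6 CPM in knockout (edgeR adjusted p = 2.27e-13). Library totals ran from 19581575 to 19758671 estimated reads. B lineage markers were abundant in all libraries, with a summed level over 11 genes of 5299 and 5247 CPM in wild type and 4796 and 4888 CPM in knockout. Of the 11, 6 were lower in knockout and none higher, while Cd79a, Cd79b, Pax5, Ptprc and Vpreb3 were not called. Of 15 neutrophil markers, 14 were lower in knockout, and their sum fell from 626 and 640 to 125 and 126 CPM. All 4 Y-linked genes were lower in knockout too (156 and 173 against 42.5 and 41.7 CPM summed). A difference between the genotypes in the share of male cells could not be told apart from an effect of Anp32b in these libraries. Monocyte markers summed to 104 and 114 CPM against 95.7 and 99.6 CPM (2 of 12 lower). T cell markers summed to 65.9 and 74.4 against 105 and 101 CPM (2 of 6 tested higher and 2 lower). Most of that rise was Lat, from a mean of 36.7 to 73.1 CPM. Zap70 was the other gene called higher, and Cd4 and Lck were called lower. Cd3e was at 2 and 4 reads in wild type and 0 in knockout. NK cell markers were at low levels (6.17 and 7.61 against 1.39 and 2.27 CPM summed, 2 of 4 tested lower). Dendritic cell markers went from 89.7 and 94.5 to 69.6 and 74.4 CPM (3 of 8 lower), and plasma cell markers from 672 and 671 to 590 and 592 CPM (3 of 5 lower, 1 higher). Most of the plasma cell sum was Irf4, at 417 and 403 CPM in wild type and 337 and 330 CPM in knockout. Of the 4 tested mast cell and basophil markers 1 was lower, and none of the erythroid (9 tested), megakaryocyte (2) and stromal (1) markers was called. Their part in the AP-1 values was not tested. In such bulk RNA, fewer cells of a type and less RNA per cell cannot be told apart. The labels do not say whether the libraries stem from separate animals, and the p-values then reflect the spread among these 4 samples only, which may be technical.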

How the data were processed

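Each deposited file holds estimated counts of reads by gene symbol for 1 library (expected counts, 64.5% to 65.6% of them whole numbers). Per the submitters' processing notes, HISAT2 2.0.4 and DESeq2 1.4.5 were used with GRCm38. How reads were counted, and with which strand setting, is not stated. Counts were rounded and tested with edgeR 4.0.16 (R 4.3.3, quasi-likelihood, TMM, filterByExpr with a minimum count of 10) and Benjamini-Hochberg adjustment. A count of 0 allows up to 3 reads, or 0.151 to 0.155 CPM. Chi-square per degree of freedom was 5.29 within wild type and 2.09 within knockout, above sampling noise.

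Promoters came from RefSeq (GRCm38.p6, 9 of 9 members matched) and lengths from GENCODE M21. On simulated counts (11982 genes tested), 80% of genes changed 1.25-fold and 100% of those changed 1.5-fold, 2-fold or 4-fold were recovered at 5 CPM or more, and 8 of 198 calls were false. The simulation gave every gene the same spread in both genotypes (biological coefficient of variation 0.0409). The real libraries differ in spread between genotypes, so these rates need not hold for them.

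The members and lists were chosen with earlier results of these data known. Every member was named, and from each list the 3 called genes with the smallest p, or all called genes where 5 or fewer were called. The alternatives were a replicate block, DESeq2 1.42.0, limma-voom (limma 3.58.1), RLE and upper-quartile scaling, 2 other filters, other lengths, and fits on 3 libraries, in which the single library of a genotype is taken to vary as the remaining pair does.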

Additional observations from a re-analysis of the deposited data

How the results depend on the processing

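Apart from the members and Anp32b, the named genes were picked by their calls in these same libraries, which every alternative reuses. A stable direction was therefore likely from the start. No named gene changed direction in any of the 336 values from alternatives for 31 tested genes. 303 kept their side of the threshold, 30 lost a call (20 of them without a knockout library) and 3 gained one. Fos, Fosb and Junb were called in all 11 alternatives, with log2 fold changes of 0.47 to 0.52, 0.73 to 0.89 and 0.44 to 0.60. Fosl2 and Batf were called in all 10 alternatives that kept them, since the filter of 10 CPM removed both. Over the leave-outs, the members called higher were 5 to 7 and those called lower 0 to 1, the genes around AP-1 10 to 23 and 12 to 33, and all tested genes 372 to 1676 and 579 to 1712. With DESeq2, 0 members and 19 genes around AP-1 were lower, and 729 and 847 of all tested genes were higher and lower. With no filter, these values were 0, 18, 547 and 744, and Jund was not called. Among the genes around AP-1, DESeq2 did not call Crtc2 (adjusted p = 0.0614), Ddit3 (0.124) or Nfe2 (0.0799), and without a filter Srf (0.0615), Zfp36l1 (0.0883), Map3k8 (0.0564) and Nfe2 (0.0597) were not called. Where a knockout library was omitted, the spread came from wild type alone, the more variable pair. The cause of the lost calls, in these fits and in the others, was not tested.

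With the replicate number as a block, 7 members were higher and 1 lower, Jun being the added call (adjusted p = 0.0251), and 1644 and 1779 of all genes were called. The numbers share no stated pairing, and the deviations of same-numbered libraries correlated at 0.0349. Upper-quartile normalization moved the median of all genes by -0.0301 and changed no member's call. With longest instead of median transcript lengths, the wild-type shares went from 45.8% to 47.0% for Fos and from 54.0% to 52.8% for Fosb. The Jun genes have 1 coding transcript each, so their shares could not change.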
